A study of Mus musculus with 12 samples.

Results

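Isg15, Ifit3, Irf7, Irf9 and Lgals3bp are 5 genes of the interferon response. They were followed in hippocampus of VP16-CREB mice, whose transgene fuses CREB, a transcription factor, to a viral activation domain so that it is always active. Doxycycline (dox) keeps this transgene silent, and removal of dox switches it on. Every probe set annotated with one of the 5 symbols was taken, which gave 6 of the 12422 probe sets that are not array controls (5 of 8251 genes): 1 each for Isg15, Ifit3, Irf9 and Lgals3bp and 2 for Irf7. The genes were chosen by results of these same arrays, namely their intensities after dox withdrawal against uninduced hippocampus, so their own values are a description and carry no test. Of the 12 arrays, 9 held RNA of whole hippocampus. Transgenic (VC) hippocampus came from mice on dox (n = 1 array), 1 week off dox (n = 2), 2 weeks off dox (n = 2), 5 weeks off dox (n = 1), and 3 weeks off dox followed by 2 weeks back on dox (n = 1, reversed). Wild-type hippocampus (n = 2) came from mice housed under the same conditions. The other 3 arrays held the microdissected CA1 subfield, from VC mice 3 weeks off dox (n = 2) and from wild-type mice (n = 1). Each hippocampal RNA pooled 6 to 10 mice, so the spread between arrays is a spread between pools. The sources used here do not give the strain, the ages, the promoter that drives the transgene or the pool size for CA1. The reversed sample is called VC in its title but wild type in its description, and the title was followed.

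Interferons are secreted proteins that cells release on sensing foreign or misplaced nucleic acid. Type I interferon binds the receptor pair Ifnar1 and Ifnar2, whose kinases Jak1 and Tyk2 pass the signal to a complex that contains Irf9 and binds the interferon-stimulated response element (ISRE) of target promoters. Irf7 is one such target and itself drives transcription of type I interferon genes, which closes an amplifying loop. Isg15 is a ubiquitin-like protein that becomes attached to other proteins after interferon exposure, Ifit3 is an antiviral protein with tetratricopeptide repeats, and Lgals3bp is a secreted glycoprotein that binds galectin-3.

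The promoters of 4 members are shown because the interferon complex and CREB both act through short promoter motifs. They are RefSeq windows of 300 bases of build GRCm38.p6, 250 bases before and 50 bases from the transcription start, read 5′ to 3′ on the strand of the gene. All 5 genes had a window, and Irf9 had 2. Capitals mark matches, on either strand, to the ISRE core GAAANNGAAA, to the same pair of half-sites with 3 bases between them (GAAANNNGAAA), to the cAMP response element TGACGTCA bound by CREB, and to its half-site TGACG, which is part of the full element. The spacing of 3 bases was added after the windows had been read.
Isg15, chr4:156200769-156201068, minus strand: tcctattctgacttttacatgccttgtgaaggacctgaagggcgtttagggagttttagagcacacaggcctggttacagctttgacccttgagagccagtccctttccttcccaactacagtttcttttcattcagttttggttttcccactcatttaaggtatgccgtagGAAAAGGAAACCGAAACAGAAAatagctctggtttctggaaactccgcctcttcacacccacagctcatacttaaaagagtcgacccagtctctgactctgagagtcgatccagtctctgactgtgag
Ifit3, chr19:34583279-34583578, plus strand: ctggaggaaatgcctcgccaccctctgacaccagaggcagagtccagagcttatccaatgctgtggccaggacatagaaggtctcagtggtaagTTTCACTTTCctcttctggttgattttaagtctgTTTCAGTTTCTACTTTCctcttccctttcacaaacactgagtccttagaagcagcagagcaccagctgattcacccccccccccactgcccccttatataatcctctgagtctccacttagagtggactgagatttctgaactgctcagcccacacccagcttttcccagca
Irf7, chr7:141266375-141266674, minus strand: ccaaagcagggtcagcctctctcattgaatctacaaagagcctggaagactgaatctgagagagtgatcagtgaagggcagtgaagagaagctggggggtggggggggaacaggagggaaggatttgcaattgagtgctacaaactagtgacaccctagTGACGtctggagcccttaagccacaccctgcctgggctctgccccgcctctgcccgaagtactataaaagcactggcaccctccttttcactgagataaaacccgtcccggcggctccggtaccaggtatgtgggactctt
Lgals3bp, chr11:118401910-118402209, minus strand: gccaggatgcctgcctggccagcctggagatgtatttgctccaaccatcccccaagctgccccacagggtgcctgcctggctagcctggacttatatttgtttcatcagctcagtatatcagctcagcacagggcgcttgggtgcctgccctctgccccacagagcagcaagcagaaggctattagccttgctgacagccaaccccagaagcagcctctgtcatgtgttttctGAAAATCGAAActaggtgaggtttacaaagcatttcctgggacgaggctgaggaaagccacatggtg

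The ISRE core stood in the windows of Isg15 and Ifit3. Isg15 held 3 overlapping matches, the farthest starting 78 bases before the transcription start, and Ifit3 held 2, starting 156 and 122 bases before it. Of 32851 promoter windows of the same length, 3.44% hold this core. The form with 3 bases between the half-sites, held by 2.75% of windows, stood once in Ifit3, where it overlaps an ISRE match, and once in Lgals3bp, 17 bases before the start. None of the windows of the 5 genes held the full cAMP response element, which 1.79% of windows do. Its half-site stood once, in Irf7, 91 bases before the start, and 20.8% of windows hold it. Neither Irf9 window, at chr14:55603735-55604034 and chr14:55604329-55604628 on the plus strand, held any of these letters. A match describes the letters of a window and is not a measured binding site.

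**Figure D1:**
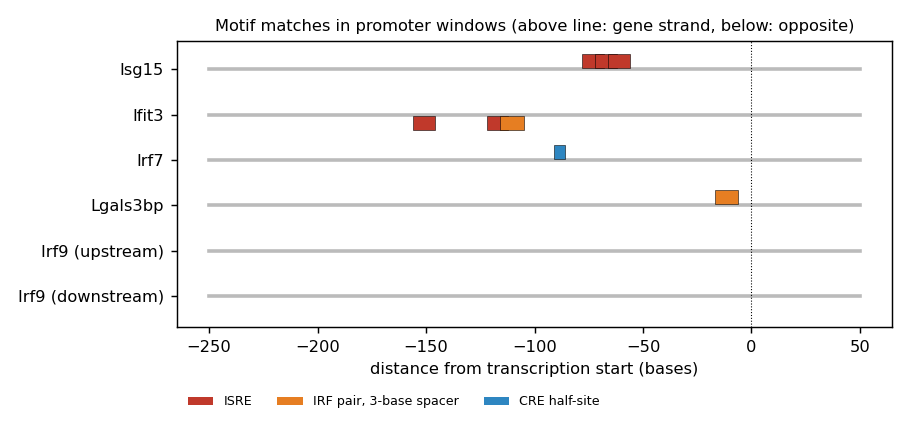
Positions of motif matches in the 6 promoter windows, in bases from the transcription start (dotted line), with matches on the gene's strand above each line and on the opposite strand below it. Isg15 and Ifit3 hold ISRE cores (red), Ifit3 and Lgals3bp the form with 3 bases between half-sites (orange), and Irf7 a cAMP response element half-site (blue).

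Levels below are log2 intensities after each array was scaled to a trimmed mean of 1000. A floor was set at 6.04, and no member lay at it on any array. Array medians ran from 8.31 to 8.76, and arrays correlated at 0.93 to 0.98 within hippocampus and at 0.83 to 0.92 between hippocampus and CA1. Levels of different probe sets are not comparable with each other, so each is followed across arrays. In tissue RNA, a change in the number of cells of a type and a change in RNA per cell cannot be told apart.

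Isg15 (98822_at) had the widest range of the members, 4.11. It read 6.17 in VC hippocampus on dox, 6.34 and 6.30 after 1 week off dox, 8.85 and 8.61 after 2 weeks, 10.28 after 5 weeks and 6.50 in the reversed sample, against 7.72 and 7.41 in wild-type hippocampus. The on-dox, 1-week and reversed arrays lay below both wild-type arrays, and the 2-week and 5-week arrays above both. The log2 difference from wild type was -1.40 on dox, -1.25 at 1 week, 1.16 at 2 weeks, 2.71 at 5 weeks and -1.06 after reversal, where the residual SD over replicate arrays was 0.16. Set against the VC array on dox, which shares the transgene, the 5-week array was 17.3-fold, the 2-week mean 5.90-fold and the 1-week mean 1.11-fold higher. The on-dox array read 71.9 in scaled intensity, close to the floor of 65.7, so these folds are approximate. Against wild type, the 5-week array was 6.55-fold and the 2-week mean 2.24-fold higher.

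Ifit3 (93956_at) stood apart on the 5-week array. It read 8.0 in VC hippocampus on dox, 8.43 and 7.97 after 1 week off dox, 8.21 and 8.66 after 2 weeks, 10.32 after 5 weeks and 8.50 in the reversed sample, against 8.21 and 7.92 in wild-type hippocampus. The on-dox, 1-week and 2-week arrays overlapped wild type. The 5-week array was 4.77-fold above the wild-type mean and 3.70-fold above the 2-week mean, and the residual SD was 0.27.

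Lgals3bp (97507_at) read 8.67 in VC hippocampus on dox, 8.97 and 8.78 after 1 week off dox, 9.26 and 9.85 after 2 weeks, 11.43 after 5 weeks and 9.17 in the reversed sample, against 9.07 and 8.86 in wild-type hippocampus. The 1-week arrays overlapped wild type, the 2-week arrays lay above it, and the 5-week array lay above every other hippocampal array. The difference from wild type was 0.59 at 2 weeks, which moved to 0.88 without the first and to 0.29 without the second 2-week array, and 2.47 (5.53-fold) at 5 weeks. The residual SD was 0.23.

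Among the regulators, the 2 Irf7 probe sets gave different patterns. The probe set 104669_at read 6.49 in VC hippocampus on dox, 6.83 and 6.10 after 1 week off dox, 8.20 and 8.71 after 2 weeks, 9.33 after 5 weeks and 6.51 in the reversed sample, against 6.37 and 6.78 in wild-type hippocampus. Both 2-week arrays and the 5-week array lay above all other hippocampal arrays. The 2-week mean was 3.69-fold and the 5-week array 6.76-fold above wild type, with a residual SD of 0.35. The wild-type, on-dox, 1-week and reversed arrays, at 6.10 to 6.83, lay near the floor of 6.04. Folds of this probe set that involve these arrays, here and below, are therefore approximate. The probe set 162202_f_at, whose suffix marks sequence shared by related genes, read 9.01 in VC hippocampus on dox, 8.74 and 8.91 after 1 week off dox, 8.90 and 8.74 after 2 weeks, 9.15 after 5 weeks and 8.59 in the reversed sample, against 9.04 and 9.01 in wild-type hippocampus. Its differences from wild type ran from -0.44 after reversal to 0.13 at 5 weeks, with a residual SD of 0.24. Over the 12 arrays the 2 probe sets correlated at -0.29, and every statement about Irf7 below rests on 104669_at unless the other is named.

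Irf9 (103634_at) stood apart most on the on-dox array. It read 7.03 in VC hippocampus on dox, 8.99 and 9.53 after 1 week off dox, 8.91 and 9.53 after 2 weeks, 10.02 after 5 weeks and 9.45 in the reversed sample, against 9.26 and 8.97 in wild-type hippocampus. The 1-week and 2-week arrays overlapped wild type, and the single on-dox array was 4.24-fold below the wild-type mean. That array was the lowest hippocampal one for Irf9, Isg15 and Lgals3bp, as for 8.5% of all tested probe sets. The 5-week array was 1.87-fold above wild type, a log2 difference of 0.90 with a residual SD of 0.31, but 7.93-fold above the on-dox array. For Irf9 the size of the 5-week difference therefore depended on which uninduced sample it was set against.

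**Figure D2:**
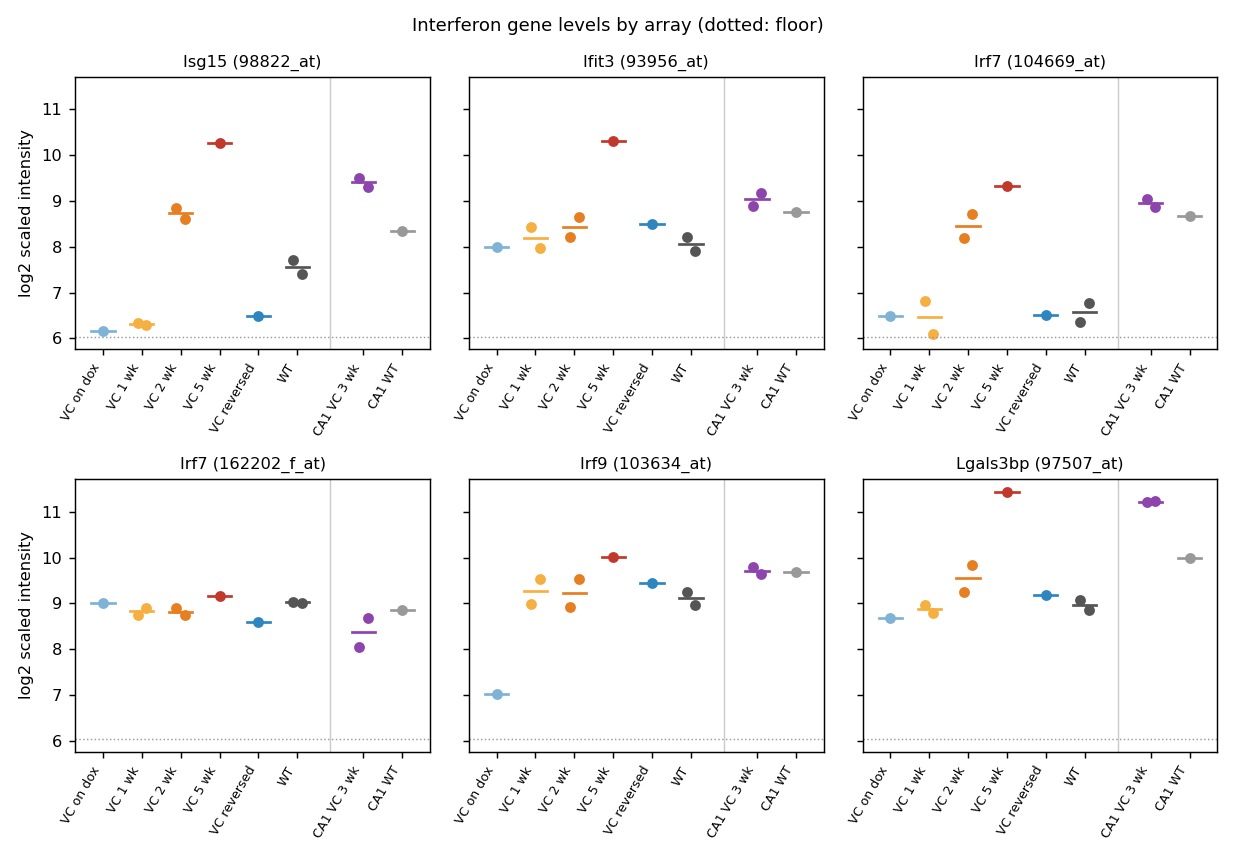
Levels of the 6 member probe sets on each array, as log2 scaled intensity, with points for arrays, short lines for group means and the floor dotted; the vertical line separates hippocampus (left) from CA1 (right). The 5-week array is the highest of the 12 arrays in each panel, at 10.28 for Isg15 and 11.43 for Lgals3bp, and Irf9 is lowest on dox, at 7.03.

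In the fit over all 7069 probe sets that passed the filter (limma, Benjamini-Hochberg adjustment, threshold 0.05), 4 of the 5 genes were called higher at 5 weeks: Isg15, Ifit3, Irf7 and Lgals3bp. Of all tested probe sets 0.495% were called higher in this comparison, 0.0707% lower and 0.566% in either direction. The genes were chosen with this contrast known, so nothing is read from the count. It was 0 without the filter on dim probe sets, 2 with the replicate block (Isg15 and Lgals3bp), 0 without either wild-type array, 1 without either 1-week array (Isg15) and 2 without either 2-week array (Isg15 and Lgals3bp). No member was called in the other comparisons, in which 0% of probe sets passed on dox, 1 week off dox and in the reversed sample, and 0.0283% passed at 2 weeks. All 5 genes lay above both wild-type arrays at 5 weeks, as did 31.9% of all probe sets, and 39.6% lay below both. All 6 probe sets were highest on the 5-week array, which was the highest hippocampal array for 13.6% of all probe sets. At 2 weeks Isg15, Irf7 and Lgals3bp lay above both, against 18.1% of all probe sets, and the shared-sequence Irf7 probe set below both, against 19.3%. On dox, Isg15, Irf9 and Lgals3bp lay below both wild-type arrays, against 32.9% of all probe sets. At 1 week Isg15 and the shared-sequence Irf7 probe set did, against 17.8%. After reversal Ifit3, Irf9 and Lgals3bp lay above both wild-type arrays, against 36.5% of all probe sets, and Isg15 and the shared-sequence Irf7 probe set below both, against 32.4%. With groups of 1 or 2 arrays such an order is common.

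For the reversed sample, dox, which silences the transgene, had been given again for 2 weeks. The level of the transgene was not examined here. Since every member probe set was highest on the 5-week array, the reversed array had to lie below it, and only the sizes are given. Against the 5-week array, Isg15 was 13.7-fold, Irf7 7.04-fold, Lgals3bp 4.79-fold, Ifit3 3.54-fold and Irf9 1.48-fold lower. Isg15 and Irf7 also lay below the 2-week mean, by 4.68-fold and 3.84-fold, whereas Ifit3 differed from it by 0.06 on the log2 scale. Set against the VC array on dox, the reversed array was 1.02-fold higher for Irf7, 1.26-fold for Isg15, 1.41-fold for Lgals3bp, 1.42-fold for Ifit3 and 5.35-fold for Irf9. Each side of these comparisons except the 2-week mean is 1 array, and the reversed mice had been off dox for 3 weeks, not 5. The reversed readings of Isg15 (6.50) and Irf7 (6.51) lay near the floor of 6.04, so their folds are approximate.

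**Figure D3:**
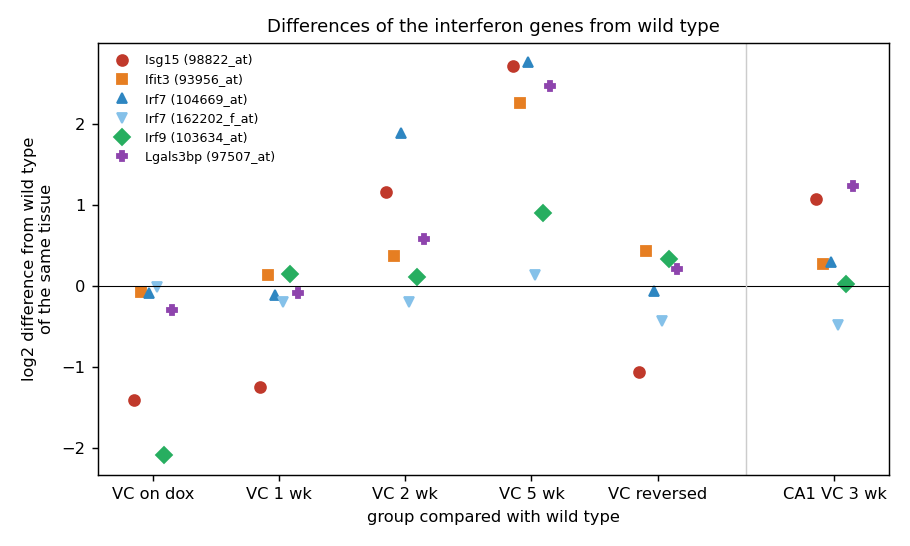
Log2 differences of the member probe sets from wild type of the same tissue, with 1 marker per probe set and group and CA1 to the right of the vertical line. Isg15 lies below 0 on dox (-1.40), at 1 week (-1.25) and after reversal (-1.06) and above it at 5 weeks (2.71), and Irf9 is lowest on dox (-2.08).

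In CA1, where VC mice had been off dox for 3 weeks, Isg15 read 9.51 and 9.31 in VC against 8.34 in wild type, 2.10-fold higher. Lgals3bp read 11.21 and 11.24 in VC CA1 against 9.99 in wild-type CA1, 2.35-fold higher. Both VC arrays lay above the wild-type array for these genes, by more than 1 log2 unit in the mean. Ifit3 read 8.90 and 9.17 in VC CA1 against 8.76 in wild-type CA1, and Irf7 read 9.05 and 8.87 against 8.67. Irf9 read 9.79 and 9.64 in VC CA1 against 9.69 in wild-type CA1, and the shared-sequence Irf7 probe set 8.06 and 8.69 against 8.86. The differences of Ifit3 (0.27), Irf7 (0.30) and Irf9 (0.03) were within the residual SD or close to it. In CA1, 0 of 5 members were called, against 0.905% of all probe sets in either direction (0.835% higher and 0.0707% lower). Isg15, Ifit3, Irf7 and Lgals3bp lay above the wild-type array on both VC arrays, against 29.4% of all probe sets, and the shared-sequence Irf7 probe set lay below it, against 31.6%.

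Wild-type CA1 itself read above both wild-type hippocampal arrays for 1 probe set of each of the 5 genes, as did 34.4% of all probe sets: 4.27-fold for Irf7, 2.03-fold for Lgals3bp, 1.70-fold for Isg15, 1.62-fold for Ifit3 and 1.49-fold for Irf9. The shared-sequence Irf7 probe set differed by -0.16. This sets 1 CA1 array against 2 hippocampal arrays. For Irf7 it left the VC CA1 mean 1.42-fold above the 2-week hippocampal mean, although the difference from wild type was 1.88 in hippocampus at 2 weeks and 0.30 in CA1. Times off dox differ between these groups, and the test of the difference between the hippocampal and CA1 effects called 0 probe sets at either 5 or 2 weeks (290 and 361 had an unadjusted p under 0.05, limma).

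Microglia and macrophage markers changed across the same arrays. The summed intensity of 20 such genes was 23740 in VC hippocampus on dox, 21050 and 21100 after 1 week off dox, 35960 and 39260 after 2 weeks, 69400 after 5 weeks and 30420 in the reversed sample, against 20460 and 23920 in wild-type hippocampus. In CA1 it was 87490 and 83830 in VC against 30440 in wild type. Of the 16 tested markers 6 were called higher at 5 weeks and 6 in CA1, against 0.495% and 0.835% of all tested probe sets. None was called lower in either, against 0.0707% in each. None was called in the other comparisons, in which at most 0.0283% of probe sets passed. None of the 20 lay at the floor throughout. Bright genes such as Ctss (13.92 at 5 weeks) and C1qa (13.47) weigh most in a sum. By gene, 15 of the 16 lay above the wild-type mean at 5 weeks (45.9% of all tested probe sets) and 14 at 2 weeks (48.1%). Cx3cr1 lay below it at both times (-0.29 and -0.18) and Spi1 at 2 weeks (-0.62). Aif1, Cd53 and Lyz2 passed the filter only through 2-week, 5-week or VC CA1 arrays, so these counts by gene are partly set by the filter. The summed 7 astrocyte markers were 39530 in VC hippocampus on dox, 34180 and 36620 after 1 week off dox, 57090 and 46140 after 2 weeks, 58100 after 5 weeks and 38380 in the reversed sample, against 36340 and 37130 in wild type, and 1 of the 7, Gfap, was called higher at 5 weeks. The 8 endothelial markers summed to between 3137 and 4589 in hippocampus, with 3650 at 5 weeks. The 9 lymphocyte markers summed to between 1042 and 1893 over all arrays, lowest at 5 weeks, and Cd2 lay at the floor on every array. Other marker sums also stood apart on the 5-week array, with none of their genes called. The 4 dentate granule cell markers summed to 3084 at 5 weeks against 5390 and 4795 in wild type, the 2 CA1 pyramidal cell markers to 2694 against 3696 and 3972, and the 7 neuron markers to 57880 against 61250 and 69140, each the lowest hippocampal array. The 6 choroid plexus markers summed to 13120 at 5 weeks against 8167 and 7866 in wild type, and the 3 blood markers to 13570 against 8715 and 7447, and in each of these lists a 1-week array was higher still. The part of these cell types in the member levels was not tested.

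**Figure D4:**
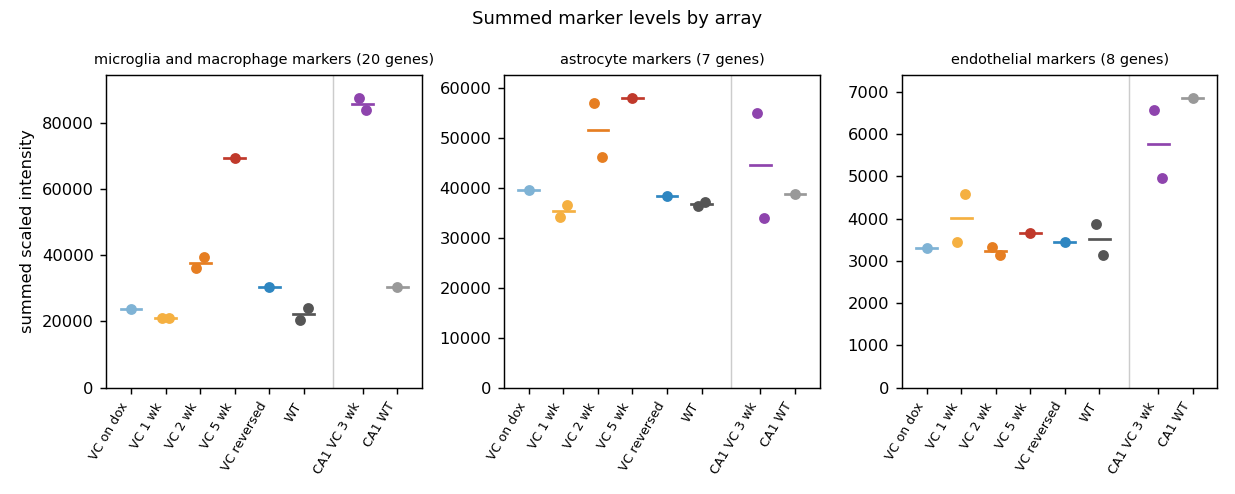
Summed scaled intensity of microglia and macrophage, astrocyte and endothelial markers on each array, with group means as short lines and CA1 to the right of the vertical line. The microglia and macrophage sum is 69400 at 5 weeks against 20460 and 23920 in wild-type hippocampus, and 87490 and 83830 in VC CA1 against 30440 in wild-type CA1.

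The rest of the interferon pathway was described with 8 lists of 107 genes. Of these, 73 had a probe set and 31 a tested one. None of the 31 was called in any of the 6 comparisons (limma), and 7 had an unadjusted p under 0.05 at 5 weeks and 8 in CA1, against 5.66% and 9.46% of all tested probe sets. On dox, which by design silences the transgene, 4 had one, against 1.41% of all, and at 2 weeks 4, against 3.69%. These counts take both directions together. Gbp2, which is in the 5-week and the CA1 count, passed the filter only through the 5-week array and the first VC CA1 array. Ptpn2, in the CA1 count, passed only through the VC CA1 arrays, and Adar only through VC arrays off dox. The 5-week and CA1 counts in this paragraph are therefore partly set by the filter. At 5 weeks 20 of the 31 were above the wild-type mean, with a median log2 difference of 0.10, against 45.9% of all tested probe sets and a median of -0.03. At 2 weeks 17 were, with a median of 0.01, against 48.1% of all and a median of -0.01. On dox 9 were, with a median of -0.14, against 49.4% of all and a median of -0.0024. In CA1 15 were above wild-type CA1, with a median of -0.0017, against 47.9% of all and a median of -0.017.

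By role, none of the 4 receptors was called at 5 weeks. Their log2 differences from wild type were 0.27 for Ifnar1, 0.10 for Ifnar2, 0.70 for Ifngr1 and -0.29 for Ifngr2. Ifngr1 and Ifngr2 form the receptor of interferon gamma. Ifnar1 (9.24 against 8.90 and 9.03 in wild type) and Ifngr1 (9.43 against 8.77 and 8.70) were highest on the 5-week array. That array was the highest hippocampal one for 13.6% of all tested probe sets. The kinases downstream of the receptors read 0.06 for Jak1, -0.16 for Jak2 and -0.44 for Tyk2. Among the other interferon regulatory factors, Irf8, which microglia and other myeloid cells require, read 8.21 in VC hippocampus on dox, 7.98 and 8.16 after 1 week off dox, 8.82 and 9.30 after 2 weeks, 9.98 after 5 weeks and 8.93 in the reversed sample, against 8.50 and 8.17 in wild type. Its 5-week difference of 1.64 did not pass (adjusted p = 0.0632, limma). Irf5 differed by 0.46, Irf1 by 0.02 and Irf3 by -0.27, and Irf4 lay at the floor on every array. The 8 tested effectors had a median of 0.29 at 5 weeks and the 4 tested GTPases, proteins that act on intracellular pathogens, 1.07, against -0.03 over all tested probe sets. Their members with the smallest adjusted p were Ifitm3, a membrane protein that restricts virus entry (1.86, adjusted p = 0.0579, limma), and Gbp3 (1.65, adjusted p = 0.0726). The other GTPases are named after their values were seen. Gbp7 read 8.88 at 5 weeks against 9.86 and 9.38 in wild type, a difference of -0.74, and Irgm2 differed by 0.49. Gbp2 read 9.11 at 5 weeks, against 7.24 and the floor in wild type, so that its difference has no exact size. Gbp2 passed the filter only through the 5-week array and the first VC CA1 array. Adar, an effector, passed only through VC arrays off dox. The GTPase and effector medians at 5 weeks are therefore partly set by the filter.

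**Figure D5:**
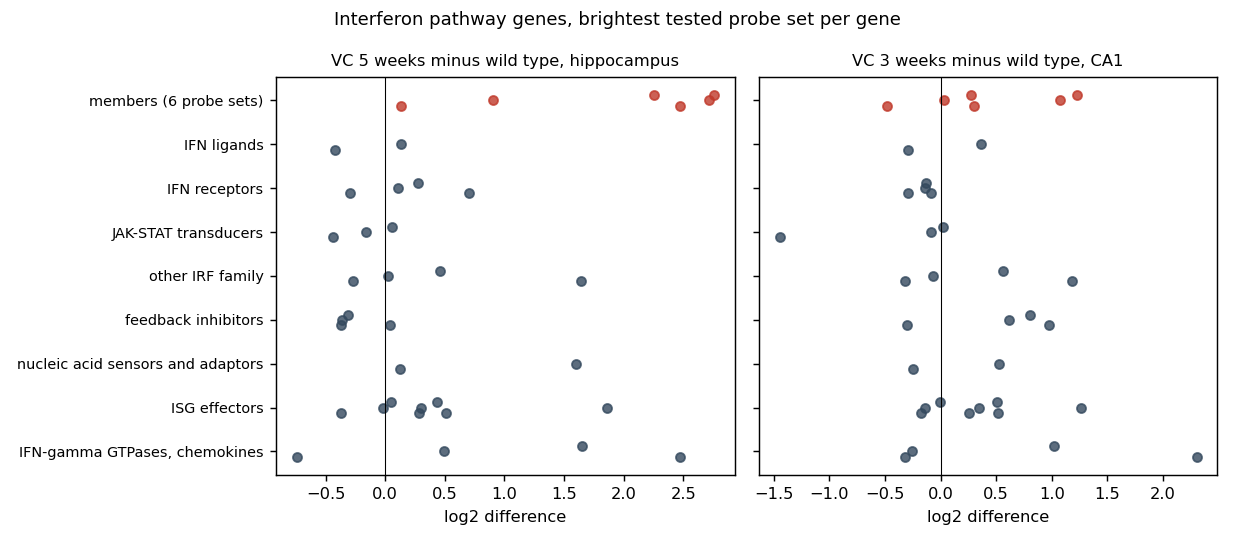
Log2 differences from wild type at 5 weeks in hippocampus (left) and at 3 weeks in CA1 (right), 1 point per gene of each interferon list, with the 6 member probe sets in the top line. At 5 weeks 4 member probe sets lie above 2.25, while the 4 receptors lie between -0.29 and 0.70.

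A further 42 listed genes had probe sets only under the filter. At 5 weeks 23 of the 42 lay above both wild-type arrays and 6 below both, against 16.8% and 23.5% of all 5353 probe sets under the filter, and 10 lay at the floor on all 3 arrays. At 2 weeks 5 lay above (10.4% of all) and 2 below (8.89%), and in CA1 15 above (17.9%) and 9 below (23.6%). The following were picked after their values were seen. Usp18, which removes Isg15 from proteins, lay at the floor in VC hippocampus on dox, at 6.04 and 6.99 at 1 week and 6.04 and 6.17 at 2 weeks, at 8.54 at 5 weeks and at the floor after reversal, against the floor on both wild-type arrays. Ifit1, a relative and binding partner of Ifit3, lay at 8.94 at 5 weeks, against the floor in wild type, on dox, at 1 week and after reversal. In CA1 neither separated the genotypes in this way: Usp18 read 8.13 and 7.84 in VC against 8.18 in wild type, and Ifit1 7.35 and 7.85 against 7.20. Uba7, the enzyme that activates Isg15 for attachment, was tested and differed by -0.02 at 5 weeks. Lgals3, which encodes galectin-3, read 7.48 at 5 weeks against the floor on both wild-type arrays. Among the interferons, Ifng lay at the floor on every array. Ifnb1 lay at the floor at 5 weeks, against 7.13 and 7.14 in wild-type hippocampus, but also on dox and on the first 1-week array. The tested Ifna5 and Ifnab differed by 0.13 and -0.42 at 5 weeks. The brighter Ifna4 probe set read 8.36 at 5 weeks against 7.78 and 7.68 in wild type, and the dimmer 6.10 against 6.52 and 7.36. Ifna9 read 8.03 against 7.26 and 7.65, and Ifna2 6.42 against 7.39 and 6.73. Ifna7 and Ifna11 lay at the floor at 5 weeks.

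Over the 12 arrays, Isg15 correlated with Irf7 at 0.92 and with Lgals3bp at 0.88, and Ifit3 with Lgals3bp at 0.88. Irf9 correlated with these 4 genes at 0.52 to 0.61. The arrays share groups and tissues, so these values describe the profiles only. The genes most like the mean member profile, with the brightest probe set per member, were Gbp3 (r = 0.93), Tap1 (0.92), Itgb5 (0.91), Pld4 (0.90), Ifi27l2a (0.90), Ctsl (0.90), Laptm5 (0.90), Lag3 (0.89), Irf8 (0.89) and Ifitm3 (0.88). For Irf7 the brightest probe set is the one with shared sequence, and with 104669_at in its place 6 of these 10 remained. Gbp3, Ctsl, Lag3 and Ifitm3 then dropped out. H2-K1, Bach1, C1qa and C1qc came in (r from 0.905 to 0.909), and Tap1 ranked highest (0.94). Singly, Isg15 was most like Ifi27l2a (0.93), Ifit3 most like Ctsl (0.93) and Irf9 most like Cideb (0.91). Lgals3bp was most like Pld4 (0.96), C1qc (0.94) and C1qb (0.94), of which the last 2 encode chains of complement C1q and are among the microglia markers above. Irf7 was most like Kcne1l (0.93).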

How the data were processed

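RNA of 12 samples was measured on Affymetrix MG-U74Av2 arrays. The intensity values the authors deposited are linear and come from GCOS, the Affymetrix array software, per the submitters' processing notes; its version and algorithm were not given in the sources used here. A mean that leaves out the highest and lowest 2% of values was 500.3 to 500.4 on wild-type hippocampal array 1 and the CA1 arrays and 3002 on the other 8.

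Here 66 of 12488 probe sets were dropped as controls, each array was scaled to a trimmed mean of 1000, the 20th percentile over all arrays (65.7) served as a floor, log2 was taken, and the 7069 probe sets above their array's median on at least 2 arrays were tested. All 6 member probe sets passed, Isg15, Ifit3 and Irf7 (104669_at) through no wild-type hippocampal array. One fit over 8 groups used limma 3.58.1 in R 4.3.3 (two-sided, Benjamini-Hochberg, threshold 0.05, 4 residual degrees of freedom). Groups of 1 array were assumed to vary like the others. The number of arrays limits the precision. Symbols came from the platform annotation (10833 probe sets with 1 symbol, 396 with several, 1193 with none).

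The members and lists were chosen with earlier results of these data known. Named were all members, called genes of the pathway lists, every measured receptor, transducer and regulatory factor, and the genes with the highest correlation to the member profile. Samples with the same replicate number did not deviate together (r from -0.226 to 0.195 over 6 pairs of groups), so the numbers were not used as pairs. Alternatives were quantile normalization, no filter, a floor at the 10th percentile, wild type pooled with the on-dox array, a replicate block and leaving out arrays.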

Additional observations from a re-analysis of the deposited data

Results flagged for a closer look

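Isg15 lay on opposite sides of wild type at different times off dox. Its log2 difference was -1.25 at 1 week, 1.16 at 2 weeks, 2.71 at 5 weeks and 1.07 in CA1, and only that at 5 weeks was called (limma). Every VC array lay below wild type at 1 week, as for 17.8% of all probe sets, and above it at 2 weeks (18.1% of all), at 5 weeks (31.9%) and in CA1 (29.4%). The Irf7 probe set with shared sequence, 162202_f_at, was below wild type at 1 week (-0.195), at 2 weeks (-0.202) and in CA1 (-0.485) and above it at 5 weeks (0.134). None of these was called, the hippocampal values lie within its residual SD of 0.237, and the CA1 value was -0.17 without the first VC array and -0.80 without the second. The test of the hippocampal effects at 5 and 2 weeks against the CA1 effect called 0 probe sets (limma). Differences between times off dox in hippocampus were not tested.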

How the results depend on the processing

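The 5-week differences of the members kept their sign under every alternative run, from 2.56 to 3.18 for Isg15, 2.11 to 2.40 for Ifit3, 2.55 to 2.96 for Irf7 (104669_at), 2.36 to 2.57 for Lgals3bp and 0.76 to 1.60 for Irf9. Over all member differences 447 of 462 values moved by less than 1 SD. Counts of called probe sets depended on the setting, and the cause was not tested. Without the filter the count was 27 instead of 0 on dox, 3 instead of 0 at 1 week, 5 instead of 40 at 5 weeks, 31 instead of 0 after reversal and 267 instead of 64 in CA1, and 3 listed genes passed in CA1 instead of 0. With wild type and the on-dox array as one group it was 2 at 1 week, 11 instead of 2 at 2 weeks and 70 at 5 weeks, where 3 listed genes passed (Gbp3, Ifitm3 and Irf8); this gives no value for the on-dox comparison. With quantile normalization 1 listed gene passed at 5 weeks. With the replicate block the count in CA1 was 35, and 2 of the 4 members called at 5 weeks passed (Isg15 and Lgals3bp). Leaving out single arrays gave 0 to 6 at 2 weeks, 1 (without wild-type array 1) to 61 at 5 weeks, 0 to 1 after reversal and 7 (without wild-type array 1) to 158 in CA1, and 0 to 1 listed genes at 5 weeks and in CA1. Within hippocampus, leaving out wild-type array 1 equals a block for the deposited scale. Without the filter 0 members passed at 5 weeks. Signals near the floor limit what can be read from dim probe sets.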
